A study of Oryza sativa with 12 samples.

Results

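Transcripts of the photosynthetic apparatus were examined in rice roots. The genotypes were the F1 hybrid Xieyou9308, its paternal line R9308 and its maternal line Xieqingzao B. The 101 transcripts are all those whose annotation in the deposited table holds the gene ontology term for photosynthetic light harvesting (33 transcripts) or that for photosynthesis (68 transcripts), out of 42081 annotated transcripts, and they belong to 68 loci. Roots of the 3 genotypes were collected at the heading stage and at the tillering stage, with 2 libraries for each of the 6 groups and 12 in all. The plants were unmodified lines raised from seed in the field and then grown on foam floating in nutrient solution, and no treatment set the groups apart. Poly-A RNA was sequenced, and the libraries held 8209696 to 15830233 assigned counts. Levels are given as RPKM, counts scaled to the length of the transcript and to the total of the library, so that they can be set side by side between genes. The replicates are named biological in the study, and the p-values measure the spread between 2 libraries per group.

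Photosystem II takes electrons from water at its oxygen-evolving side, and photosystem I passes them on to ferredoxin. Light is gathered by chlorophyll-binding antenna proteins, named Lhcb where they serve photosystem II and Lhca where they serve photosystem I. These antenna proteins and most small subunits are encoded in the nucleus, whereas the reaction centre cores are encoded in the plastid. Roots hold non-green plastids as a rule, but those of many plants can green, and the nuclear genes of this set are then switched on together with those for chlorophyll synthesis. In bulk roots, fewer cells expressing a gene and less RNA in each of them cannot be told apart.

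Replicate 1 of R9308 at the tillering stage stood apart from the other 11 libraries and is given on its own throughout. The members took 1.13% of its counts, against 0.00866% to 0.0675% in the others, and their summed level was 11222 RPKM, against 112 RPKM in replicate 2 of the same group, a ratio of 101. The members shared this with a small part of the transcriptome. Of the 74 members with at least 30 counts in that library, 36 were at 10 or more times the level of the highest other library (48.6%), as were 471 of all 22846 transcripts with that many counts (2.06%). The count filter used that same library and took in transcripts that are high only there. Both shares are thus descriptions and not a test. A list of 12 green shoot marker transcripts (Rubisco small chain, Rubisco activase and chloroplast carbonic anhydrase) summed to 2756 RPKM there and to 58.8 to 249 RPKM elsewhere. The 9 root marker transcripts summed to 589 RPKM, against 694 to 1804 RPKM in the other libraries. Of the 9, 1 had 0 counts in that library, as did 0 to 3 in each of the others. No library lacked the silicon transporter Lsi1 (Os02t0745100-01) or the RCc3 protein (Os02t0662000-01). The part of green tissue in the results was not tested.

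At heading, the summed level of the members was 682 and 390 RPKM in the hybrid, 172 and 157 RPKM in R9308, and 378 and 494 RPKM in Xieqingzao B. The hybrid and Xieqingzao B thus overlapped, and both R9308 libraries lay below them. At tillering, with replicate 1 of R9308 aside, the sums were 136 and 121 RPKM in the hybrid, 112 RPKM in the remaining R9308 library, and 116 and 94.9 RPKM in Xieqingzao B. The ratio of the mean sums at heading was 3.27 for the hybrid over R9308, 1.23 for the hybrid over Xieqingzao B and 0.376 for R9308 over Xieqingzao B. A level of at least 1 RPKM in both heading libraries was reached by 53 members in hybrid roots, 10 in R9308 roots and 42 in Xieqingzao B roots. No counts in either heading library were found for 17 members in hybrid roots, 34 in R9308 roots and 23 in Xieqingzao B roots, and 5 members had none in any of the 12 libraries. Of all 42081 transcripts, those detected in single heading libraries were 32655 and 32467 in the hybrid. They were 31962 and 31277 in R9308, and 31627 and 32264 in Xieqingzao B.

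**Figure D1:**
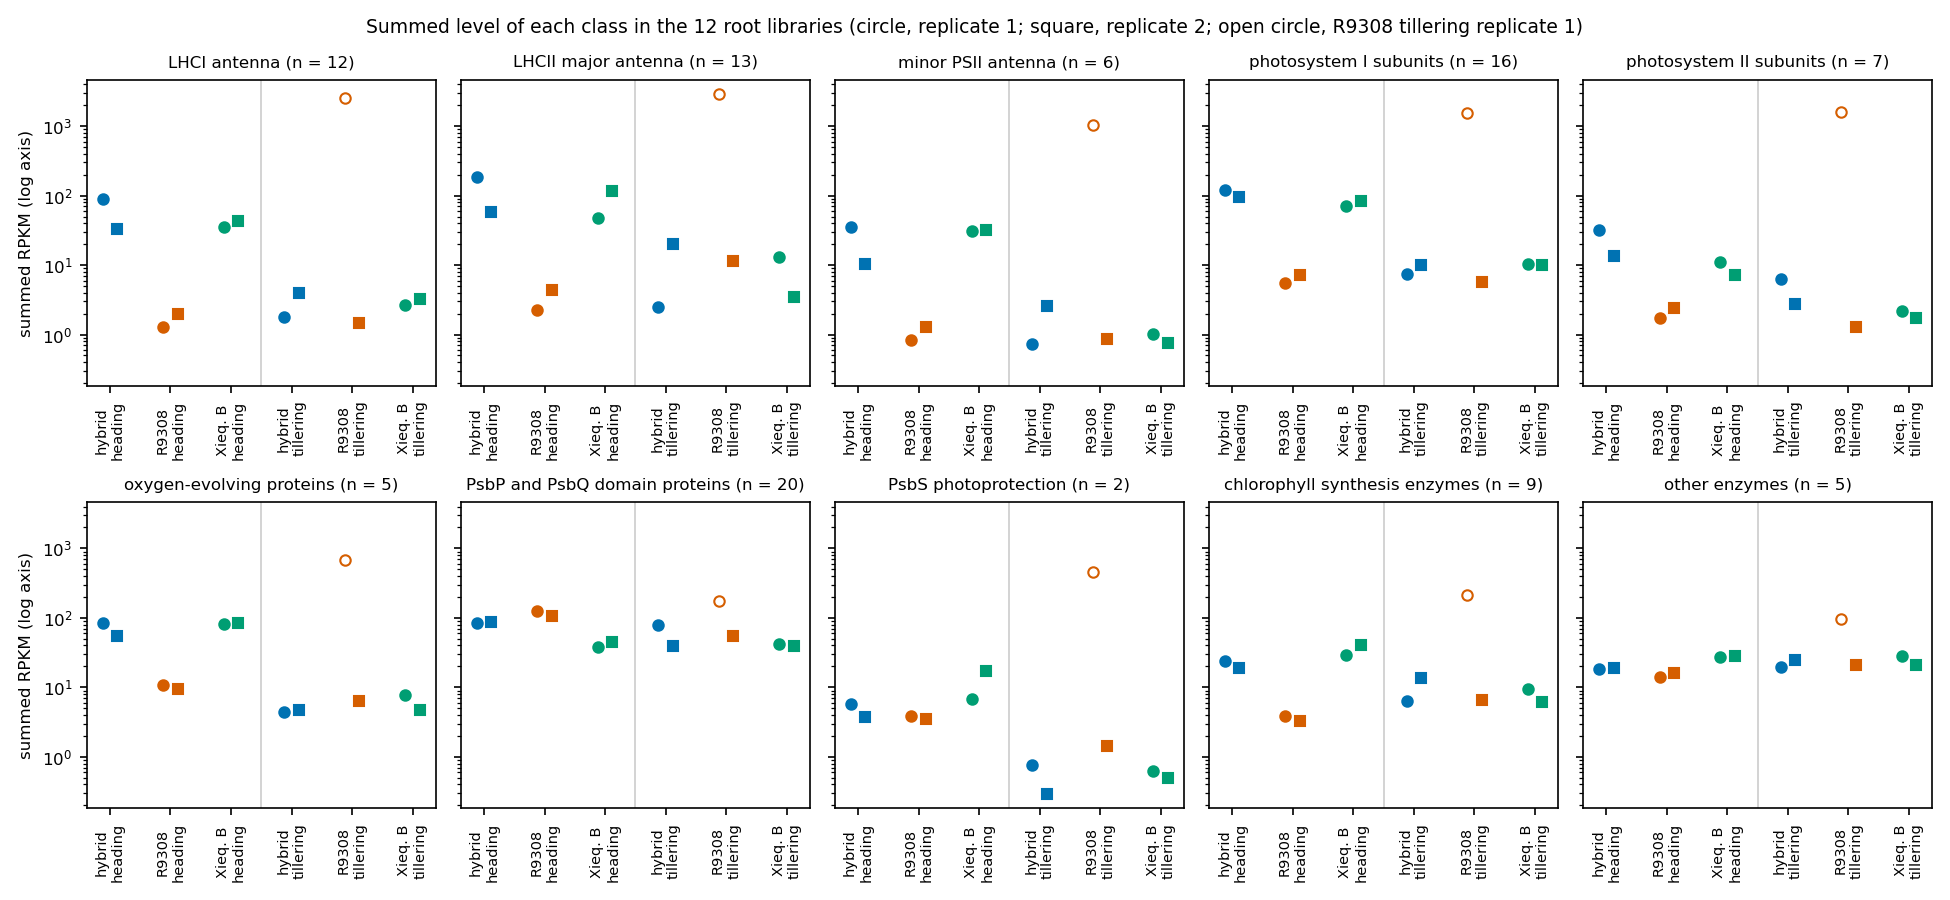
Summed RPKM (log axis) of 10 classes of members in the 12 root libraries; circles are replicate 1, squares replicate 2, and the open circle is replicate 1 of R9308 at tillering. In the antenna classes, both R9308 heading libraries lie near or below the tillering libraries other than the open circle. The hybrid and Xieqingzao B heading libraries lie above those, and the open circle lies above all.

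The classes differed in how far R9308 stood below the other genotypes at heading. The photosystem I antenna (12 transcripts) summed to 89.95 and 32.7 RPKM in the hybrid, 1.28 and 1.96 RPKM in R9308, and 34.8 and 43.3 RPKM in Xieqingzao B. The major photosystem II antenna (13 transcripts) summed to 187 and 57.5 RPKM in the hybrid, 2.28 and 4.40 RPKM in R9308, and 47.8 and 115 RPKM in Xieqingzao B. The minor antenna proteins that link it to photosystem II (6 transcripts) gave 35.1 and 10.3 RPKM in the hybrid, 0.841 and 1.30 RPKM in R9308, and 30.9 and 31.9 RPKM in Xieqingzao B. In each of these antenna classes the mean of the hybrid was 21.2 to 37.9 times that of R9308, and the R9308 libraries lay below all 4 libraries of the other genotypes.

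Photosystem I subunits (16 transcripts) summed to 121 and 94.2 RPKM in the hybrid, 5.61 and 7.17 RPKM in R9308, and 71.4 and 82.5 RPKM in Xieqingzao B. The PsbO, PsbP and PsbQ proteins of the oxygen-evolving complex (5 transcripts) gave 85.5 and 54.3 RPKM in the hybrid, 10.7 and 9.55 RPKM in R9308, and 81.2 and 83.3 RPKM in Xieqingzao B. Small photosystem II subunits (7 transcripts) were at 31.8 and 13.7 RPKM in the hybrid, 1.75 and 2.43 RPKM in R9308, and 10.99 and 7.31 RPKM in Xieqingzao B. The hybrid libraries were highest in the photosystem I and photosystem II classes, while the oxygen-evolving class overlapped between the hybrid and Xieqingzao B.

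Chlorophyll synthesis enzymes (9 transcripts) summed to 24.2 and 19.0 RPKM in the hybrid, 3.92 and 3.31 RPKM in R9308, and 28.9 and 41.0 RPKM in Xieqingzao B. PsbS, which dissipates excess light energy as heat (2 transcripts), stood at 5.69 and 3.76 RPKM in the hybrid, 3.82 and 3.49 RPKM in R9308, and 6.82 and 17.1 RPKM in Xieqingzao B. The remaining enzymes (5 transcripts, ferredoxin-thioredoxin reductase and solanesyl diphosphate synthase) gave 18.3 and 19.1 RPKM in the hybrid, 14.3 and 16.01 RPKM in R9308, and 27.4 and 28.1 RPKM in Xieqingzao B. These last classes were thus highest in Xieqingzao B. Within PsbS, the order between the hybrid and Xieqingzao B rested on the more abundant transcript, Os04t0690800-01, and the other, Os01t0869800-01, had 2.22 and 1.15 RPKM in the hybrid against 0.243 and 0.180 RPKM in Xieqingzao B.

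The 20 transcripts of the wider PsbP and PsbQ domain family followed another order. They summed to 83.4 and 85.8 RPKM in the hybrid, 127 and 107 RPKM in R9308, and 37.5 and 45.0 RPKM in Xieqingzao B, and the most abundant of them in each heading library was the PsbP domain transcript Os01t0934400-01. Without it, the class summed to 22.3 and 20.9 RPKM in the hybrid, 22.4 and 31.2 RPKM in R9308, and 24.8 and 23.0 RPKM in Xieqingzao B. It alone made up 60.9% and 48.4% of the summed member level in the R9308 heading libraries, 8.96% and 16.6% in the hybrid, and 3.36% and 4.45% in Xieqingzao B. Without the most abundant member, the mean sum over all members was 2.68 log2 units higher in the hybrid than in R9308, compared with 1.71 with it, and the log2 ratio of R9308 over Xieqingzao B was −2.501, compared with −1.41 with it.

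The first gene-by-gene comparison set the hybrid against R9308 at heading. A transcript was called where the edgeR quasi-likelihood test, adjusted over all tested transcripts by the Benjamini-Hochberg method, gave p of at most 0.05 and the fold change was at least 2. Of the 101 members, 64 passed the filter on low counts, 10 were called higher in the hybrid and 0 lower. Over all 27187 tested transcripts, 0.714% were called higher and 0.173% lower. Without a test, both hybrid libraries lay above both R9308 libraries for 54 of the 101 members, against 21.2% of all 42081 transcripts. In this comparison 36 of the 64 tested members had an unadjusted p under 0.05 with edgeR, against 15.7% of all tested transcripts. DESeq2 called 30 members higher and 0 lower, against 3.2% and 1.96% of all. The calls depended on each library. No call, for a member or for any other transcript, held when any of the 4 was left out, which leaves 1 library in its group.

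Photosystem I subunits made up 4 of the 10. PsaD (Os08t0560900-01), a stromal subunit at the ferredoxin docking site, had 19.9 and 22.8 RPKM in the hybrid, against 2.09 and 2.64 RPKM in R9308 (log2 fold change 3.17 ± 0.42 SE, adjusted p = 0.0458). PsaE (Os07t0435300-01), another stromal subunit, had 17.1 and 15.6 RPKM in the hybrid, against 0.438 and 0.402 RPKM in R9308 (5.21 ± 0.40 log2, adjusted p = 0.0181). PsaF (Os03t0778100-03), the subunit for plastocyanin docking, had 8.68 and 6.88 RPKM in the hybrid, against 0.563 and 0.930 RPKM in R9308 (3.37 ± 0.42 log2, adjusted p = 0.0416). The hybrid libraries lay close to each other for these genes. PsaH (Os05t0560000-01), a membrane subunit where the mobile antenna can bind, had 23.2 and 23.6 RPKM in the hybrid, against 0.165 and 0.908 RPKM in R9308 (5.38 ± 0.60 log2, adjusted p = 0.0364).

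Among the antenna genes, Lhca1 (Os06t0320500-01) had 31.8 and 11.9 RPKM in the hybrid, against 0.319 and 0.488 RPKM in R9308 (5.73 ± 0.66 log2, adjusted p = 0.0368). Lhca2 (Os07t0577600-01) had 23.5 and 9.51 RPKM in the hybrid, against 0.413 and 0.569 RPKM in R9308 (5.05 ± 0.61 log2, adjusted p = 0.0405). Here the hybrid libraries differed by more than 2 times but did not overlap with R9308. The Lhcb1 transcript Os09t0346500-02 had 8.98 and 13.5 RPKM in the hybrid, while R9308 had 2 counts over both libraries. The ratio of the pooled counts, scaled to the library totals, was 109, with an exact 95% counting interval of 29.9 to 909 (adjusted p = 0.0487).

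The remaining called members belonged to the oxygen-evolving complex and to chlorophyll synthesis. PsbO (Os01t0501800-01), which stabilises the manganese cluster that splits water, had 31.6 and 19.4 RPKM in the hybrid, against 1.26 and 2.15 RPKM in R9308 (3.91 ± 0.39 log2, adjusted p = 0.0301). PsbP (Os07t0141400-01), its partner on the lumenal side, had 17.2 and 9.67 RPKM in the hybrid, against 0.301 and 0.369 RPKM in R9308 (5.29 ± 0.46 log2, adjusted p = 0.0199). Os01t0279100-01 is described in the file as a bZIP protein but carries the orthology number of Mg-protoporphyrin IX monomethyl ester cyclase, an enzyme of chlorophyll synthesis, and the other transcript of the locus is described as that enzyme. It had 9.05 and 5.30 RPKM in the hybrid, against 0.397 and 0.364 RPKM in R9308 (4.23 ± 0.47 log2, adjusted p = 0.0359).

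**Figure D2:**
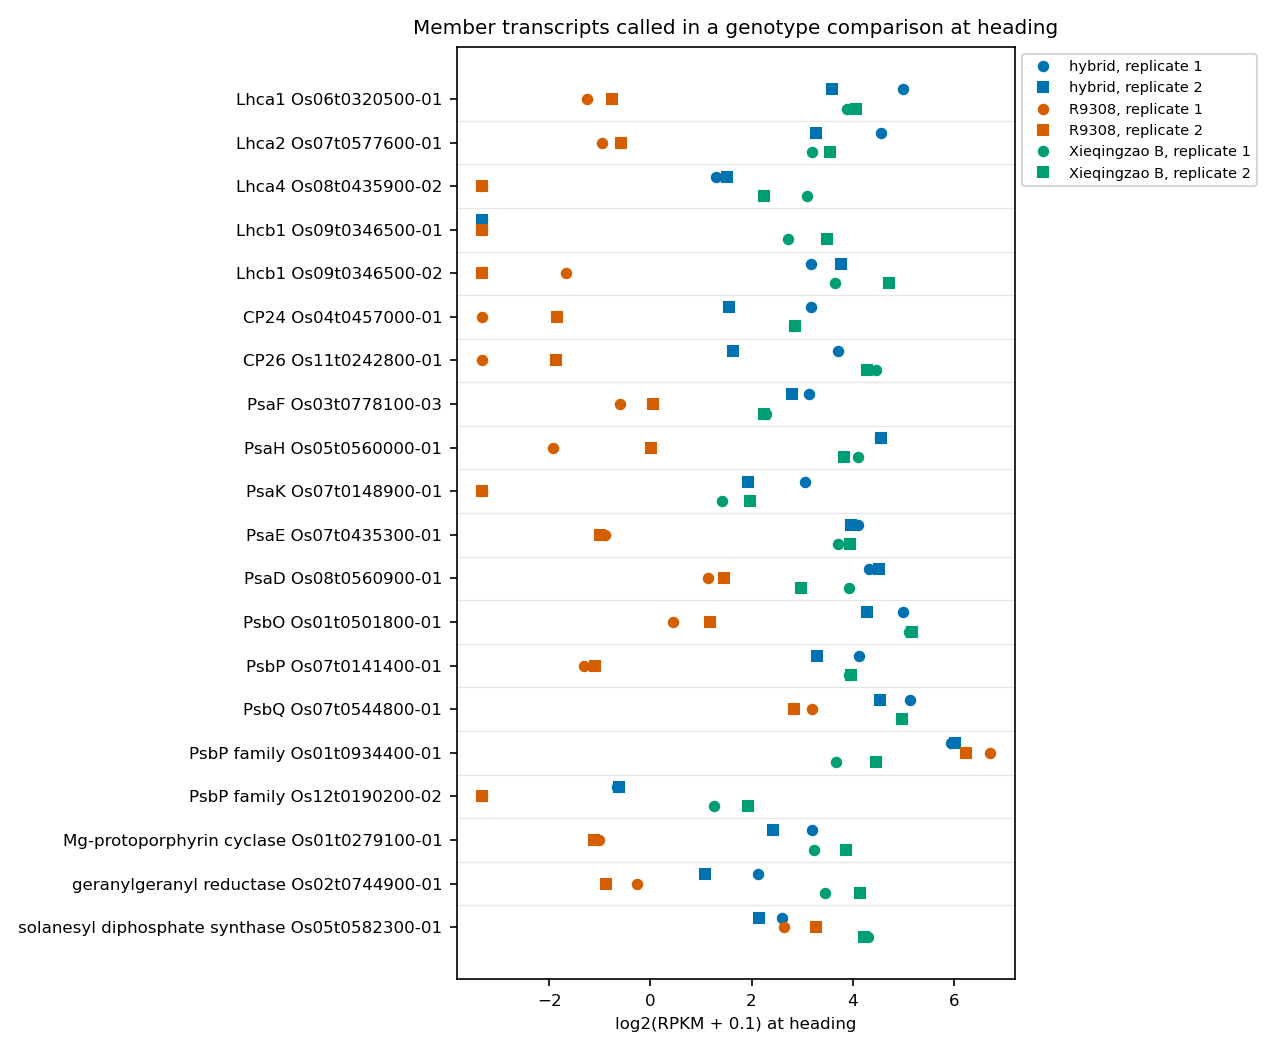
Levels as log2(RPKM + 0.1) of the 20 members called in at least 1 genotype comparison at heading, for the hybrid, R9308 and Xieqingzao B; circles are replicate 1 and squares replicate 2. R9308 lies left of both other genotypes in most rows, with the PsbP domain transcript Os01t0934400-01 (105 and 75.7 RPKM) as the clearest exception.

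The parental comparison at heading set R9308 against Xieqingzao B. Of the 101 members, 18 were called lower in R9308 and 1 higher, with 64 past the filter, against 4.4% of all tested transcripts called lower and 6.36% called higher. Both R9308 libraries lay below both Xieqingzao B libraries for 39 members of 101, against 26.1% of all transcripts. The members' calls were thus mostly lower in R9308, whereas the calls over all transcripts were 1730 higher and 1196 lower, or 1479 and 1432 when scaled to library size alone. An unadjusted p under 0.05 was found for 30 members, against 28.3% of all transcripts. DESeq2 called 24 members lower and 2 higher, against 6.51% and 8.78% of all. With all 12 libraries in 1 model, 0 members were called lower and 1 higher, with 14 members at an unadjusted p under 0.05. That model holds the library that stands apart, and with it left out 12 were called lower and 1 higher. Leaving out replicate 1 of R9308 gave 8 calls, replicate 2 of R9308 9, and either Xieqingzao B library 16. This comparison shares its R9308 libraries with the previous one, so the values below are not a second measurement of R9308.

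The antenna carried 7 of the 18 lower calls. Lhca1 had 0.319 and 0.488 RPKM in R9308, against 14.7 and 16.6 RPKM in Xieqingzao B (log2 fold change −5.10 ± 0.65 SE, adjusted p = 0.0115), and Lhca2 had 0.413 and 0.569 RPKM in R9308, against 9.09 and 11.6 RPKM in Xieqingzao B (−4.24 ± 0.60 log2, adjusted p = 0.0146). The Lhca4 transcript Os08t0435900-02 had 0 counts in both R9308 libraries, against 8.41 and 4.65 RPKM in Xieqingzao B, and was at least 24.0-fold lower in R9308 if 3 counts per library are taken as the floor. CP24 (Os04t0457000-01), a minor antenna protein, had 0 and 0.180 RPKM in R9308, against 7.03 and 7.17 RPKM in Xieqingzao B. The ratio of its pooled counts was 0.0132, with a counting interval of 0.00159 to 0.0484. CP26 (Os11t0242800-01), another minor antenna protein, had 0 and 0.173 RPKM in R9308, against 21.9 and 19.3 RPKM in Xieqingzao B, with a pooled ratio of 0.00435 (counting interval 0.000526 to 0.0158). For both minor antenna proteins the 2 Xieqingzao B libraries were close to each other.

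Both called Lhcb1 transcripts come from the locus Os09t0346500. Transcript 01 had 0 counts in R9308, against 6.49 and 11.2 RPKM in Xieqingzao B, and was at least 28.1-fold lower in R9308. Transcript 02 had 0.214 and 0 RPKM in R9308, against 12.4 and 26.3 RPKM in Xieqingzao B (pooled ratio 0.00541, counting interval 0.000653 to 0.0196). Its sister transcript Os09t0346500-05, the most abundant member of the class, was not called, with 0 and 0.505 RPKM in R9308 against 0 and 37.8 RPKM in Xieqingzao B. The 0 in a Xieqingzao B library stands beside other transcripts of the same locus that were well covered there.

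**Figure D3:**
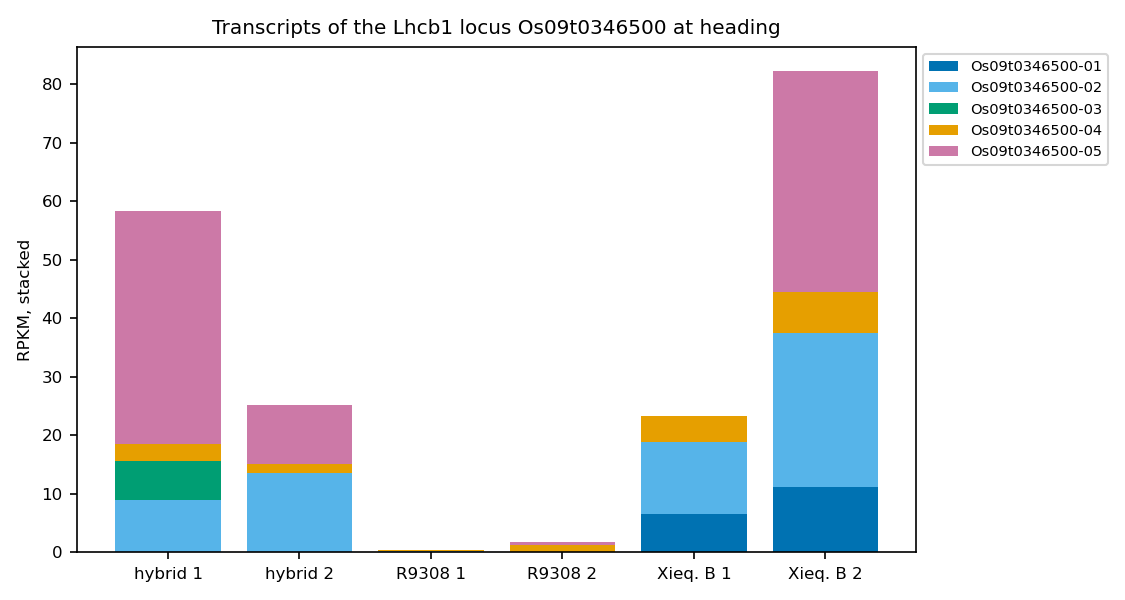
Stacked RPKM of the 5 transcripts of the Lhcb1 locus Os09t0346500 in the 6 heading libraries (hybrid, R9308 and Xieqingzao B, replicates 1 and 2). The locus sums to 58.3 and 25.2 RPKM in the hybrid, 0.485 and 1.83 RPKM in R9308, and 23.3 and 82.2 RPKM in Xieqingzao B, and the split among transcripts changes between replicates.

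Of the photosystem I subunits, 5 were called lower in R9308. PsaE had 0.438 and 0.402 RPKM in R9308, against 13.02 and 15.3 RPKM in Xieqingzao B (−4.87 ± 0.40 log2, adjusted p = 0.00403, the smallest among the members). PsaH had 0.165 and 0.908 RPKM in R9308, against 17.1 and 14.0 RPKM in Xieqingzao B (−4.66 ± 0.60 log2, adjusted p = 0.0116). PsaD and PsaF differed by less, with −2.14 ± 0.41 log2 for PsaD (adjusted p = 0.0308) and −2.51 ± 0.41 log2 for PsaF (adjusted p = 0.0210). PsaK (Os07t0148900-01), a subunit beside the antenna, had 0 counts in R9308, against 2.59 and 3.84 RPKM in Xieqingzao B, and was at least 6.01-fold lower in R9308.

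PsbO, PsbP and the most abundant of the 3 PsbQ transcripts were called lower in R9308. PsbO had 1.26 and 2.15 RPKM in R9308, against 34.6 and 36.0 RPKM in Xieqingzao B (−4.24 ± 0.39 log2, adjusted p = 0.00556), and PsbP had 0.301 and 0.369 RPKM in R9308, against 15.1 and 15.6 RPKM in Xieqingzao B (−5.34 ± 0.46 log2, adjusted p = 0.00467). PsbQ (Os07t0544800-01) had 9.04 and 7.03 RPKM in R9308, against 31.1 and 31.5 RPKM in Xieqingzao B (−1.84 ± 0.30 log2, adjusted p = 0.0198). PsbQ thus differed by less than PsbO and PsbP.

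In chlorophyll synthesis, Os01t0279100-01 had 0.397 and 0.364 RPKM in R9308, against 9.30 and 14.6 RPKM in Xieqingzao B (−4.82 ± 0.48 log2, adjusted p = 0.00647). Geranylgeranyl reductase (Os02t0744900-01), which makes the phytol tail of chlorophyll, had 0.731 and 0.448 RPKM in R9308, against 10.9 and 17.5 RPKM in Xieqingzao B (−4.45 ± 0.56 log2, adjusted p = 0.0114). A PsbP family transcript, Os12t0190200-02, had 0 counts in R9308, against 2.31 and 3.72 RPKM in Xieqingzao B, and was at least 9.46-fold lower in R9308. The member called higher in R9308 was the PsbP domain transcript Os01t0934400-01, with 105 and 75.7 RPKM in R9308 against 12.7 and 22.02 RPKM in Xieqingzao B (2.51 ± 0.33 log2, adjusted p = 0.0120).

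Of the members, 3 were called between the hybrid and Xieqingzao B at heading, 1 higher and 2 lower in the hybrid, where 5.35% of all tested transcripts were called higher and 2.75% lower (1454 and 749 transcripts, or 1210 and 1033 when scaled to library size alone). The share of tested members called was thus below the background in the first direction and near it in the other. Os01t0934400-01 had 61.1 and 64.9 RPKM in the hybrid, against 12.7 and 22.02 RPKM in Xieqingzao B (log2 fold change 2.00 ± 0.32 SE, adjusted p = 0.0270). Solanesyl diphosphate synthase (Os05t0582300-01), which makes the side chain of plastoquinone, had 5.95 and 4.31 RPKM in the hybrid, against 19.5 and 18.5 RPKM in Xieqingzao B (−1.75 ± 0.33 log2, adjusted p = 0.0359). Transcript 01 of the Lhcb1 locus Os09t0346500 had 0 counts in the hybrid, against 6.49 and 11.2 RPKM in Xieqingzao B, and was at least 27.5-fold lower in the hybrid. The locus as a whole had 58.3 and 25.2 RPKM in the hybrid, against 23.3 and 82.2 RPKM in Xieqingzao B. In the edgeR test it was not called (−0.20 ± 0.68 log2, adjusted p = 0.854). The split of reads among its transcripts was not tested. Without either hybrid library 0 members were called, without replicate 1 of Xieqingzao B 1, and without replicate 2 of Xieqingzao B 3, all higher. An unadjusted p under 0.05 was found for 21 of the 64 tested members, against 28.8% of all transcripts. DESeq2 called 6 members higher and 5 lower, against 8.91% and 5.19% of all.

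The median log2 fold change of the 64 tested members, a description of those that passed the filter, was 3.60 in the hybrid over R9308, 0.47 in the hybrid over Xieqingzao B and −2.85 in R9308 over Xieqingzao B. Over all tested transcripts it was 0.00, −0.03 and −0.04 in the same order.

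Counting all transcripts of a locus together gave more calls. Of the 68 loci 49 passed the filter. On locus counts, 20 were called higher and 0 lower in the hybrid than in R9308, against 1.81% and 0.871% of 22395 tested loci. In R9308 against Xieqingzao B, 21 loci were lower and 1 higher, against 6.73% and 8.78%. The hybrid against Xieqingzao B gave 9 loci higher and 4 lower, against 8.9% and 5.59% of all loci. Among the tested loci, the hybrid against R9308 and R9308 against Xieqingzao B stand far above the background in their main direction.

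The loci that differed between the hybrid and Xieqingzao B are described here after their values were seen. The Lhcb1 locus Os01t0600900 had 55.2 and 10.7 RPKM in the hybrid, against 0.780 and 2.30 RPKM in Xieqingzao B (4.53 ± 0.93 log2, adjusted p = 0.0244). PsaL (Os12t0420400), which helps photosystem I dock its mobile antenna, had 12.1 and 5.70 RPKM in the hybrid, against 0.560 and 0.584 RPKM in Xieqingzao B (4.11 ± 0.62 log2, adjusted p = 0.0109). PsbR (Os08t0200300), a small protein beside the oxygen-evolving complex, had 18.3 and 7.20 RPKM in the hybrid, against 0.364 and 1.62 RPKM in Xieqingzao B (3.77 ± 0.77 log2, adjusted p = 0.0243). Both parents were low for these loci, and R9308 had 0.198 and 0.636 RPKM for Os01t0600900, 0.121 and 0.444 RPKM for PsaL, and 0.365 and 0.577 RPKM for PsbR. The other loci called higher in the hybrid were another Lhcb1 locus (Os01t0720500), PsaF, PsaN (Os12t0189400), a PsbX locus (Os07t0673550) and 2 PsbP family loci.

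Lower in the hybrid than in Xieqingzao B were PsbS (Os04t0690800), geranylgeranyl reductase (Os02t0744900), solanesyl diphosphate synthase and a PsbP family locus (Os12t0190200). PsbS had 3.47 and 2.61 RPKM in the hybrid, against 6.57 and 16.9 RPKM in Xieqingzao B (−1.80 ± 0.48 log2, adjusted p = 0.0498). Geranylgeranyl reductase had 4.29 and 2.02 RPKM in the hybrid, against 10.9 and 17.5 RPKM in Xieqingzao B (−2.02 ± 0.45 log2, adjusted p = 0.0292). R9308 had 3.40 and 3.49 RPKM for PsbS, close to the hybrid.

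**Figure D4:**
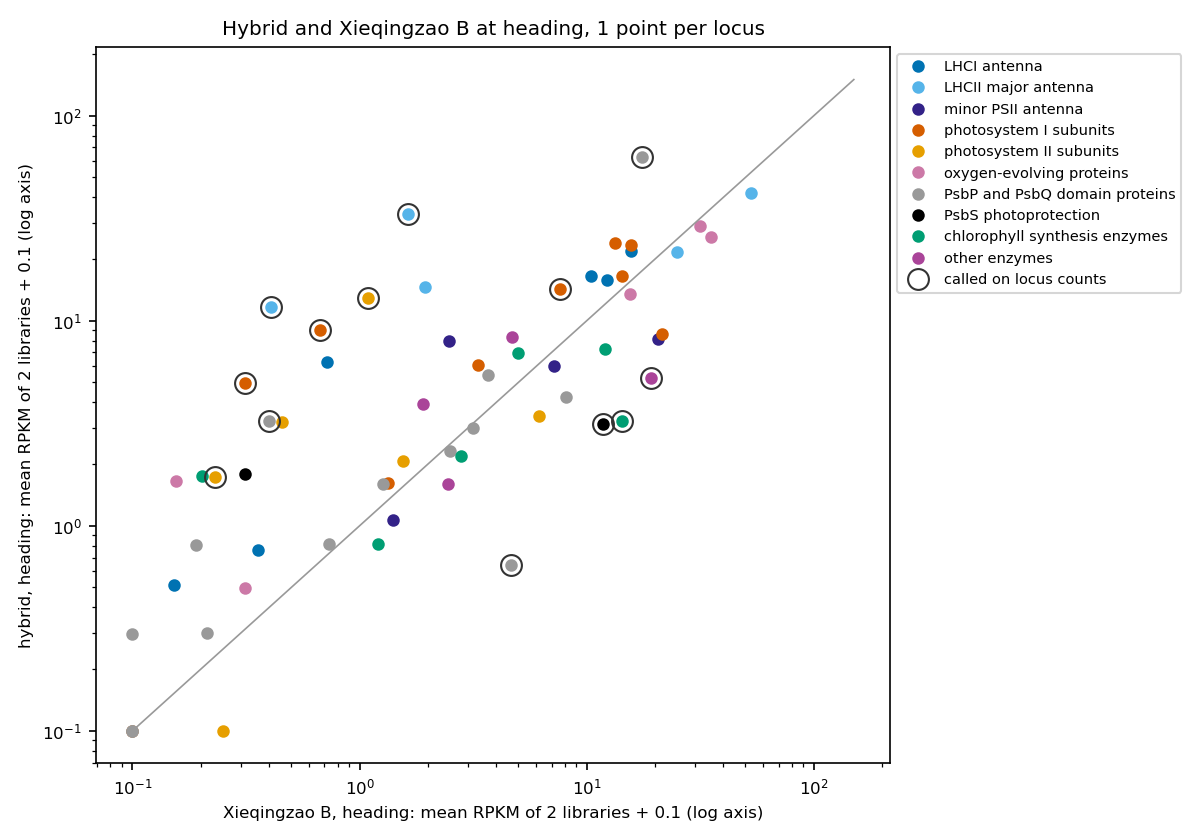
Mean RPKM + 0.1 at heading in the hybrid (vertical, log axis) and in Xieqingzao B (horizontal, log axis), 1 point per locus and coloured by class, with the line of equal levels; rings mark the 13 loci called on locus counts. Most photosystem I and antenna loci lie near or above the line, whereas chlorophyll synthesis, PsbS and solanesyl diphosphate synthase have ringed points below it.

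Without a test, both hybrid libraries lay above both Xieqingzao B libraries for 31 of the 101 members, against 21.1% of all transcripts, and below them for 17, against 27.4%. Both hybrid libraries lay above all 4 parental libraries for 28 members, against 8.98% of all transcripts. Among the classes, 7 of the 16 photosystem I transcripts and 4 of the 7 photosystem II transcripts lay above both Xieqingzao B libraries, and 2 of the 9 chlorophyll synthesis transcripts did, while 4 of these lay below. The hybrid replicates differed between classes: replicate 1 was 2.75 times replicate 2 in the photosystem I antenna, 3.25 times in the major photosystem II antenna and 3.40 times in the minor antenna, but 1.28 times in photosystem I subunits and 1.27 times in chlorophyll synthesis.

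At tillering, 39 members passed the filter and 0 were called by edgeR in any genotype comparison. On simulated counts for the hybrid over R9308 at tillering, this test found 0 of 100 transcripts changed by 4-fold and 0 of 100 changed by 16-fold. The 0 calls thus do not show that the genotypes were alike. Of all 28434 tested transcripts, edgeR called 0.0106% in the hybrid against R9308, 0% in the hybrid against Xieqingzao B and 0.0246% in R9308 against Xieqingzao B. In the hybrid against R9308, 13 members had an unadjusted p under 0.05, against 17.3% of all transcripts, and DESeq2 called 8 lower and 0 higher, against 5.4% and 3.41% of all. In the hybrid against Xieqingzao B, 0 members had an unadjusted p under 0.05, against 8.57% of all transcripts, and DESeq2 called 0, against 1.39% of all called higher and 1.55% lower. In R9308 against Xieqingzao B, 14 members had an unadjusted p under 0.05, against 9.01% of all transcripts, and DESeq2 called 10 higher and 0 lower, against 3.01% and 1.38% of all. Without replicate 1 of R9308, 0 members in the hybrid against R9308 and 1 in R9308 against Xieqingzao B had an unadjusted p under 0.05. In the other 5 tillering libraries, the summed photosystem I antenna stood at 1.47 to 3.92 RPKM, photosystem I subunits at 5.71 to 10.4 RPKM and the oxygen-evolving class at 4.37 to 7.69 RPKM. The small photosystem II subunits ranged over 1.30 to 6.29 RPKM, the minor antenna over 0.728 to 2.56 RPKM and chlorophyll synthesis over 6.06 to 13.6 RPKM. The major photosystem II antenna had 2.49 and 20.3 RPKM in the hybrid, 11.3 RPKM in the remaining R9308 library, and 12.9 and 3.48 RPKM in Xieqingzao B, so that replicates of a genotype differed by more than the genotypes. The PsbP and PsbQ domain family was the most abundant class in each of these 5 libraries, at 38.8 to 78.3 RPKM. This rested on Os01t0934400-01, without which the class summed to 13.2 to 24.5 RPKM, against 19.4 to 27.8 RPKM for the other enzymes.

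In replicate 1 of R9308 at tillering, 71 of the 101 members had their highest level of all libraries. The share of all transcripts that were highest there was not computed, so this count has no background. That library also had the most detected transcripts of all libraries (34398). The most abundant members there were the Lhcb1 transcript Os09t0346500-05 (859 RPKM), Lhca1 (833 RPKM), the PsbR transcripts Os08t0200300-02 (734 RPKM) and Os08t0200300-01 (607 RPKM), and the Lhca4 transcript Os08t0435900-01 (499 RPKM). In replicate 2 of the group these 5 had 1.56, 0, 0, 0.103 and 0 RPKM in the same order. The small photosystem II subunits summed to 49.3 times the highest other library, the minor antenna to 29.0 times, the photosystem I antenna to 28.6 times, the PsbS transcripts to 26.8 times and the photosystem I subunits to 12.6 times. The major photosystem II antenna summed to 15.5 times and the oxygen-evolving proteins to 8.04 times the highest other library. Chlorophyll synthesis (5.13 times), the other enzymes (3.41 times) and the PsbP and PsbQ domain family (1.39 times) stood less far apart. The plastid-type genes, at 0.507 times, were not highest in that library. The 2 transcripts of the PsbR locus Os08t0200300, at the levels given above, had summed to 18.3 and 7.20 RPKM in hybrid heading roots.

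Profiles of log2 levels were set beside that of replicate 1 of R9308 at tillering, over 51 members with a mean of at least 1 RPKM in the other 11 libraries. At heading, 53 members reached 1 RPKM in both hybrid libraries, 42 in Xieqingzao B and 10 in R9308. The filter thus took in members through the groups where they are high, and no ranking of likeness is drawn. Pearson's r across transcripts, which are not independent replicates, was 0.56 and 0.42 with the hybrid heading libraries. It was −0.33 and −0.14 with the R9308 heading libraries and 0.25 and 0.52 with those of Xieqingzao B. With the other tillering libraries r ranged from −0.40 to −0.27, and was −0.27 with replicate 2 of the same group. These are descriptions, and the points share the library and the annotation.

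**Figure D5:**
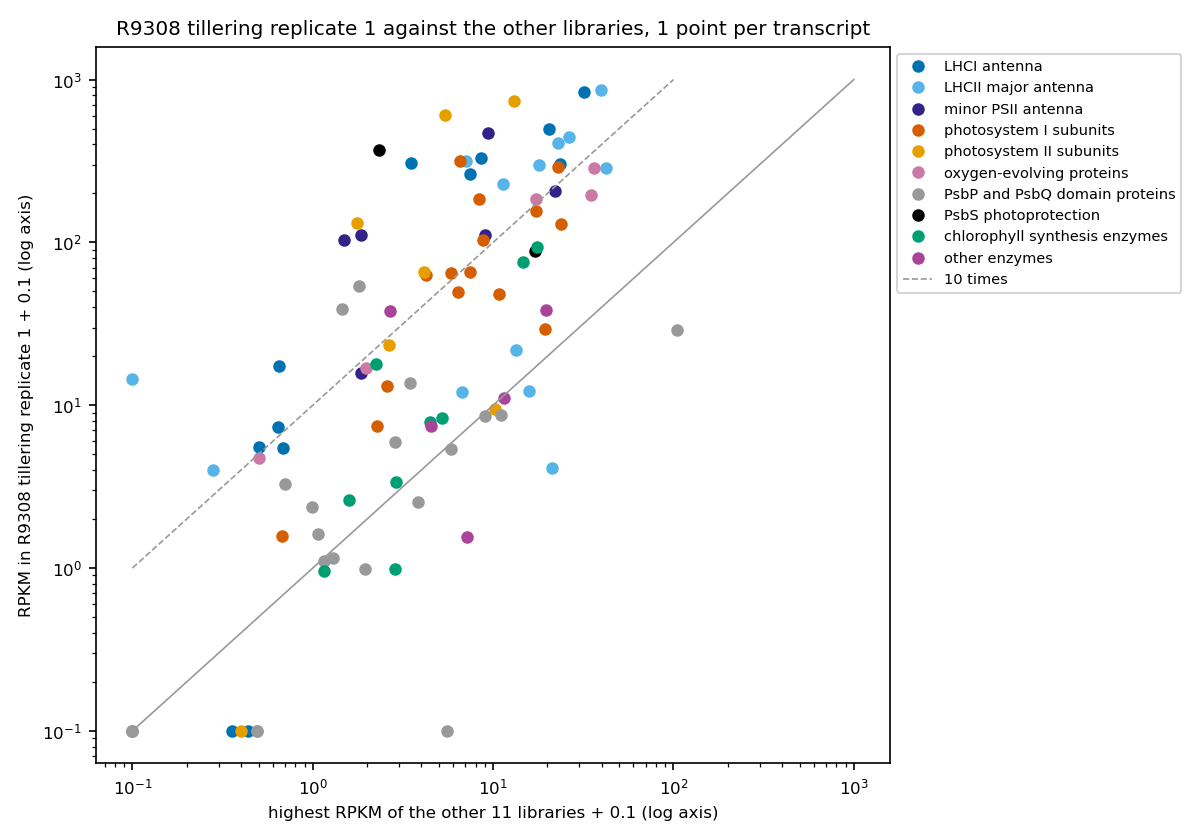
RPKM + 0.1 in replicate 1 of R9308 at tillering (vertical, log axis) against the highest RPKM + 0.1 of the other 11 libraries (horizontal, log axis), 1 point per transcript and coloured by class; the solid line marks equal levels and the dashed line 10 times. Most antenna, photosystem I and photosystem II points lie above the solid line, and the PsbP domain transcript Os01t0934400-01 (29.0 RPKM there, 105 RPKM at most elsewhere) lies below it.

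Between stages, 76 members passed the filter and 0 were called by edgeR in a model over the 12 libraries. Of all 29560 tested transcripts, edgeR called 1.2% for R9308, 0.088% for Xieqingzao B and 1.68% for the hybrid. In R9308, 47 members had an unadjusted p under 0.05, against 20.5% of all transcripts, and DESeq2 called 40 lower and 1 higher at heading, against 6.08% and 3.74% of all. Without replicate 1 of R9308 at tillering 5 members had an unadjusted p under 0.05 and 0 were called, and without replicate 2, which leaves the library that stands apart as the only one of its group, 33 of 88 tested members were called, all lower at heading, against 1.39% of all transcripts called lower. In Xieqingzao B, 18 members had an unadjusted p under 0.05, against 19.6% of all transcripts, and DESeq2 called 20 higher and 2 lower, against 3.31% and 6.08% of all. In the hybrid, 10 members had an unadjusted p under 0.05, against 25.1% of all transcripts, and DESeq2 called 16 higher and 0 lower, against 6.5% and 6.66% of all.

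The stage calls in Xieqingzao B and the hybrid changed when the library that stands apart was left out of the model. The reason for the change was not tested. A fit without it, added after the data were seen, called PsbO and PsbP higher at heading in Xieqingzao B and 5 members higher in the hybrid, of 75 members tested, where 0.0458% and 0.278% of all transcripts were called higher. PsbO had 34.6 and 36.0 RPKM at heading, against 0.321 and 0.412 RPKM at tillering, in Xieqingzao B (6.52 ± 0.58 log2, adjusted p = 0.0337). In the hybrid it had 31.6 and 19.4 RPKM at heading, against 0.0915 and 0.359 RPKM at tillering (6.81 ± 0.60 log2, adjusted p = 0.05). PsbP had 15.1 and 15.6 RPKM at heading, against 0.0769 and 0.396 RPKM at tillering, in Xieqingzao B (5.98 ± 0.69 log2, adjusted p = 0.0422). The hybrid's other calls were PsbP, PsaE, PsbQ and PsaD. All 5 calls in the hybrid shared the same edgeR adjusted p of 0.04995, at the edge of the threshold. The genotype differences were not called different between heading and tillering for any member in a test of the interaction over the 12 libraries, in which 0 of 29560 transcripts passed. Of the 76 members tested, 46 had an unadjusted interaction p under 0.05 for the hybrid over R9308, 42 for R9308 over Xieqingzao B and 2 for the hybrid over Xieqingzao B. Over all transcripts the shares were 15.8%, 12.4% and 15.2% in the same order. The library that stands apart enters this test, and DESeq2 was not run for it.

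The 6 transcripts annotated with plastid-type photosynthesis genes at nuclear loci were close to 0. They summed to at most 0.426 RPKM in any heading library, and at tillering to 7.92 and 0 RPKM in the hybrid, 4.01 and 0.249 RPKM in R9308, and 0.103 and 4.46 RPKM in Xieqingzao B. The rbcL-type transcript Os01t0899425-00 had the highest mean among them. Since the libraries were made from poly-A RNA, these values say little of plastid transcription. The PsbR transcript Os07t0147500-01, with the highest mean of the small photosystem II subunits over the other 11 libraries, varied within groups, with 5.37 and 1.26 RPKM in the hybrid, 0 and 0.990 RPKM in R9308, and 10.1 and 2.01 RPKM in Xieqingzao B at heading. PsbP family transcripts Os10t0461100-04 and Os10t0461400-01 had the same length and the same counts in every library, and their reads cannot be told apart.

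Related pathways outside the set were followed at heading. A list for the carbon reduction cycle held 24 transcripts picked by words in their descriptions, and 10 of them were tested. These words also took in a Rubisco small subunit N-methyltransferase (Os02t0725200-02) and a phosphoribulokinase/uridine kinase family protein (Os04t0596900-00). Over all tested transcripts, 0.714% were called higher in the hybrid than in R9308 and 5.35% than in Xieqingzao B. In R9308, 4.4% were called lower than in Xieqingzao B. Of the 10, 1 was called higher in the hybrid than in R9308 and than in Xieqingzao B, and 1 lower in R9308 than in Xieqingzao B. This was the Rubisco small chain Os12t0291100-01, with 53.8 and 50.4 RPKM in the hybrid, 0.497 and 1.48 RPKM in R9308, and 6.92 and 14.6 RPKM in Xieqingzao B (5.69 ± 0.61 log2 for the hybrid over R9308, adjusted p = 0.0337; 2.42 ± 0.50 log2 for the hybrid over Xieqingzao B, adjusted p = 0.0451). It is also in the green shoot list, whose sum at heading was 235 and 203 RPKM in the hybrid, 249 and 211 RPKM in R9308, and 138 and 172 RPKM in Xieqingzao B, mostly from the carbonic anhydrase Os01t0639900-01. Its 12 transcripts were at 0 in 4 and 3 cases in the hybrid libraries, 6 and 7 in R9308, and 6 and 4 in Xieqingzao B. The root list summed to 797 to 981 RPKM in the hybrid, 1520 to 1802 RPKM in R9308 and 694 to 1804 RPKM in Xieqingzao B at heading. Of its 9 transcripts, 8 were tested. The 1 called, Os02t0112100-00 (described as similar to BCH2), was higher in the hybrid and in R9308 than in Xieqingzao B. Of all tested transcripts, 5.35% and 6.36% were called higher in these comparisons. The part of tissue makeup in the member differences was not tested.

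Among 21 further transcripts of chlorophyll synthesis, 20 were tested. Of these, 5 were called lower and 1 higher in R9308 than in Xieqingzao B, against 4.4% and 6.36% of all tested transcripts. Of 3 transcripts annotated as protochlorophyllide reductase, the light-dependent step, 2 were called lower in R9308. Os04t0678700-01 had 0.241 and 0.222 RPKM in R9308, against 9.14 and 8.46 RPKM in Xieqingzao B (−5.07 ± 0.60 log2, adjusted p = 0.00969), and Os10t0496900-01 had 0.606 and 0.7999 RPKM in R9308, against 6.05 and 5.64 RPKM in Xieqingzao B (−2.92 ± 0.32 log2, adjusted p = 0.00787). In the hybrid, Os10t0496900-01 stood at 5.47 and 3.98 RPKM and was called higher than in R9308 (2.75 ± 0.32 log2, adjusted p = 0.0368). The other calls lower in R9308 were 2 transcripts of a magnesium chelatase subunit locus, Os03t0323200, and the other cyclase transcript, Os01t0279100-02. The third protochlorophyllide reductase transcript, Os02t0116500-01, described as a homologue, was not called and had 11.2 and 12.3 RPKM in R9308, against 21.6 and 16.2 RPKM in Xieqingzao B. A glutamyl-tRNA reductase transcript, Os10t0502400-02, was the one called higher in R9308 (1.44 ± 0.19 log2, adjusted p = 0.0118).

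Of 20 transcripts of regulators linked to greening, 16 were tested. Of these, 5 were called lower in the hybrid and 4 lower in R9308 than in Xieqingzao B. The shares over all tested transcripts were 2.75% and 4.4%. The 20 transcripts summed to 73.8 and 85.3 RPKM in the hybrid, 53.4 and 49.96 RPKM in R9308, and 126 and 136 RPKM in Xieqingzao B. The HY5-type factor Os01t0174000-00 had 6.90 and 9.61 RPKM in the hybrid, 10.2 and 7.58 RPKM in R9308, and 25.2 and 23.0 RPKM in Xieqingzao B (−1.41 ± 0.29 log2 for the hybrid over Xieqingzao B, adjusted p = 0.0441). Os06t0348800-01, described as a transfactor-like protein, had 0 and 0.308 RPKM in the hybrid, 0.552 and 0.338 RPKM in R9308, and 6.31 and 7.45 RPKM in Xieqingzao B. Both transcripts lay lower in the hybrid libraries than in those of Xieqingzao B. Of the 26 photorespiration transcripts, 17 were tested. In the hybrid against R9308, 1 was called lower, against 0.173% of all tested transcripts. In the hybrid against Xieqingzao B, 2 were called higher, against 5.35% of all. In R9308 against Xieqingzao B, 2 were called higher and 1 lower, against 6.36% and 4.4% of all. The 2 called higher were, in each case, the glycolate oxidase transcripts Os08t0198700-01 and Os08t0198700-02. Transcript 01 had 21.6 and 22.8 RPKM in the hybrid, 48.8 and 66.3 RPKM in R9308, and 0 counts in Xieqingzao B.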

How the data were processed

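RNA-Seq of roots gave 12 libraries, 2 for each of 3 genotypes at 2 stages, grouped by the genotype and stage in the labels. The authors mapped quality-filtered reads to the Nipponbare genome with RSEM (version 1.1.11 per the labels' processing notes, with CASAVA 1.8) and deposited whole-number counts per annotated transcript. The authors' deposited RPKM values were recomputed from these counts, with a largest deviation of 3.36e-06 RPKM. Columns of the authors' own fold changes, p-values and FDR between genotypes were not used. RSEM splits reads among transcripts of a locus, so transcript levels of one locus are less certain than their sum.

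Counts were tested with edgeR 4.0.16 (limma 3.58.1, R 4.3.3) by the quasi-likelihood test after filterByExpr and TMM scaling, within each stage for genotypes and over 12 libraries for stages, without a replicate block, and adjusted over all transcripts. Calls required adjusted p ≤ 0.05 and a change of 2-fold or more in either direction. Assigned counts were 8209696 to 15830233 per library, and counting intervals (exact, 95%) and the floor of 3 counts cover counting error only. On simulated counts for the hybrid over R9308 at heading (27187 transcripts), 34 of 100 transcripts changed by 4-fold and 88 of 100 changed by 16-fold were found, and for the same comparison at tillering (28434 transcripts) 0 of 100 of either.

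Alternatives were DESeq2 1.42.0, RLE factors, library size alone, TMM without the members, no filter, sums over loci, other sets of libraries in a model, a replicate block, and leaving out each library; fits without replicate 1 of R9308 at tillering for other comparisons were added after seeing the data. Python 3.11.15, numpy 2.4.6, pandas 2.3.3, scipy 1.17.1 and matplotlib 3.10.9 were used for other values and figures. Named transcripts are all members called at heading (at most 30), those called in other comparisons (at most 10), the most abundant of each class, and the 5 highest in replicate 1 of R9308 at tillering. Members, classes and lists were chosen with earlier results of these data known. The genome build and sequences were not used here.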

Additional observations from a re-analysis of the deposited data

How the results depend on the processing

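With 2 libraries per group, the counts of called members depended on how the spread was estimated, while no called member changed direction under any alternative. In hybrid over R9308 at heading, 10 members were called, against 30 with DESeq2 and 20 loci with counts summed over loci. A replicate block gave 0 for the members and 0 over all transcripts. All 12 libraries in 1 model gave 0 members, and 11 libraries in 1 model gave 5. No call, for a member or for any other transcript, held with any library left out, which leaves 1 library in its group. In hybrid over Xieqingzao B at heading, 3 were called, against 11 with DESeq2, 13 loci, 0 with the replicate block, 0 with 12 libraries, 0 with 11 libraries, and 0 to 3 with a library left out. In R9308 over Xieqingzao B at heading, 19 were called (18 lower), against 1, a higher one, with 12 libraries in 1 model and 8 to 16 with a library left out. The replicate block gave 13 there. At tillering DESeq2 called 8 members in hybrid over R9308 and 10 in R9308 over Xieqingzao B, where edgeR called 0. Between stages edgeR called 0, against 41 with DESeq2 for R9308, 22 for Xieqingzao B and 16 for the hybrid. Loci gave 1 for R9308. With a library left out the range was 0 to 33 for R9308, 0 to 2 for Xieqingzao B and 0 to 5 for the hybrid. Among the 32 calls of single members, DESeq2, library size alone, no filter and TMM without the members kept 32, RLE factors 31, the replicate block 13, the model of 12 libraries 1 and that of 11 libraries 18. Correlations of the deviations of same-numbered libraries ran from −0.36 to 0.04 within a stage. With 2 libraries per group they cannot decide whether the numbers pair libraries. Library size alone shifted the median of all transcripts by −0.13 in both comparisons with Xieqingzao B at heading, with 1210 higher and 1033 lower in hybrid over Xieqingzao B, against 1454 and 749 with TMM, and by −0.12 between stages in the hybrid. The log2 ratio of the mean member sums moved to 2.68 (hybrid over R9308) and −2.50 (R9308 over Xieqingzao B) without the most abundant member, and to −1.65 for R9308 over Xieqingzao B on counts scaled to the library total alone. Of 60 class ratios 40 moved by less than 1 SD between replicates and 20 by more. The cause of these changes was not tested, beyond the smaller number of samples in fits that leave out a library.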
